A study of Mus musculus with 8 samples.

Results

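The genes that flank Isl1 on mouse chromosome 13 were examined to ask whether transcripts from the neighbourhood of a modified locus differ when the locus carries hypomorphic alleles. The group holds 10 genes (Ndufs4, Fst, Mocs2, Itga2, Itga1, Pelo, Parp8, Emb, Mrps30 and Nnt), taken by name as genes within a few Mb of Isl1, out of 20701 gene symbols in the table. Each symbol was represented by its most highly counted transcript. All 10 passed the filter on low counts, with between 59 and 10254 counts per library.

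Outflow tract with right ventricle was dissected from single embryos at E10.5 and its RNA sequenced, 4 embryos labelled wild type (CTRL) and 4 labelled as Isl1 hypomorphs (Isl1_hypo). The hypomorphic embryos carried a floxed Isl1 allele with a neo cassette on both chromosomes (Isl1-f;neo/f;neo), so the modification is present in every cell and not only in the heart. All 8 embryos bear the strain label C57BL/6 without a substrain, and the origin of the targeted cells is not given in the sources used here. Isl1 itself encodes a LIM-homeodomain transcription factor of second heart field progenitors, the cells that build the outflow tract and right ventricle.

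The flanking genes have no common function. Itga1 and Itga2 encode alpha subunits that pair with Itgb1 into collagen-binding integrins, Emb an immunoglobulin-family chaperone of monocarboxylate transporters, and Fst the secreted activin antagonist follistatin. Ndufs4 (a subunit of respiratory complex I), Mrps30 (a mitochondrial ribosome protein) and Nnt (the inner membrane transhydrogenase that makes NADPH) serve mitochondria. Pelo rescues stalled ribosomes, Mocs2 encodes molybdopterin synthase for the molybdenum cofactor, and Parp8 belongs to the ADP-ribosyl transferases. Nnt is known to differ between C57BL/6 substrains, since C57BL/6J carries a deletion of internal exons. The mm9 reference comes from C57BL/6J, and the counts hold no sequence variants from which the origin of the segment could be read.

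On mm9 the Isl1 gene body runs from 117088478 to 117099896 on the minus strand of chromosome 13. To its centromeric side lie Ndufs4 (115078003 to 115178302), Fst (115242470 to 115249159), Mocs2 (115608452 to 115619214), Itga2 (115626124 to 115722249), Itga1 (115748287 to 115892172) and Pelo (115878565 to 115880396), with gaps of 1.91, 1.84, 1.47, 1.37, 1.20 and 1.21 Mb to the Isl1 gene body. To its telomeric side lie Parp8 (117643631 to 117814323), Emb (118009432 to 118062905), Mrps30 (119168917 to 119176059) and Nnt (120124255 to 120197804), with gaps of 0.54, 0.91, 2.07 and 3.02 Mb. Pelo lies inside the gene body of Itga1 on the same strand, and the annotated exons of the pair share 0 bases. Of the exon bases of Emb, 14.8% overlap the opposite-strand gene model Gm17509, and reads were counted without regard to strand. No other annotated gene overlapped a member.

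The nested pair Itga1 and Pelo is shown by sequence because their starts are only 11.8 kb apart on mm9 while their levels were counted from separate exons. The 250 bases before each start, from the RefSeq promoter table of GRCm38.p6, are printed 5′ to 3′ on the minus strand with CG dinucleotides in capitals. The windows are chr13:115101965-115102214 for Itga1 and chr13:115090159-115090408 for Pelo on that build.
Itga1: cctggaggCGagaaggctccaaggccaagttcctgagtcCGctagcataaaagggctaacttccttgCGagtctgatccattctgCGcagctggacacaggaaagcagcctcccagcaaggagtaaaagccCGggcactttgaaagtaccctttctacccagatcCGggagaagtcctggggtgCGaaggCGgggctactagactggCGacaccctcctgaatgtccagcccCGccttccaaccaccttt
Pelo: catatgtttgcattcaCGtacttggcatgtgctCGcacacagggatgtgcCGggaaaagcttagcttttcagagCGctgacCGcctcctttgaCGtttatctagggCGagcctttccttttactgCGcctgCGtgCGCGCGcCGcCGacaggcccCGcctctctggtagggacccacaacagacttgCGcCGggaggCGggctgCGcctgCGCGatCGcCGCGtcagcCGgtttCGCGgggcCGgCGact
The Itga1 window holds 10 CG dinucleotides and the Pelo window 29, against a median of 6 (quartiles 2 and 16) over 32851 such windows. Promoter entries were found for 8 of the 10 genes, all except Fst and Nnt. The homeodomain core letters TAAT (ATTA on the other strand) occurred 2 times in the 300-base promoter window of Isl1, 2 times in that of Ndufs4 and 1 time in that of Mrps30, and 0 times in those of Mocs2, Itga2, Itga1, Pelo, Parp8 and Emb. These letters were thus in 2 of the 8 flanking windows, against 58% of all promoter windows, and the difference was not tested.

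Sequencing depth was 29748458 to 46678973 counts per library in CTRL and 18422245 to 33050298 in Isl1_hypo. Levels are given as CPM, counts scaled to a common library size after TMM normalization. The targeted gene checked the labels. Isl1 values were 29.6, 61.5, 46.2 and 51.3 CPM in the CTRL embryos and 12.7, 6.86, 7.71 and 11.4 CPM in Isl1_hypo, and every Isl1_hypo library lay under every CTRL library. Isl1 fell by 2.29 ± 0.256 (SE) on the log2 scale (edgeR quasi-likelihood test, adjusted p = 0.0077). The labelled tissue was checked by its markers, and all 9 cardiomyocyte markers were tested, with summed levels of 42572 to 51995 CPM in CTRL and 45509 to 53971 CPM in Isl1_hypo. Of these 9 markers 5 had log2 fold changes above 0 and 4 below (median 0.0044). At an unadjusted p under 0.05, 3 were lower and 0 higher (11.9% of all genes in either direction), and 0 passed by edgeR.

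None of the flanking genes passed the test across all genes at an adjusted p under 0.05 (0 of 10, edgeR), where 37 of 13769 genes (0.269%) did. At an unadjusted p under 0.05 there were 2 of 10, Itga1 and Nnt, against 11.9% of all genes tested. The same 2 genes were the only members whose groups did not overlap in CPM, against 8.5% of all genes. DESeq2 called 2 of 10 at an adjusted p under 0.05 (2.32% of its genes) and limma-voom with sample weights also 2 of 10 (0.973%), in each case Itga1 and Nnt. Of the 10 log2 fold changes, 6 were above 0 and 4 below, with a median of 0.10 and a median absolute value of 0.14. At an adjusted p under 0.10 edgeR had 2 of 10 (0.726% of all genes), and by the criterion of the study, a log2 fold change beyond 0.58 in either direction at an unadjusted p under 0.05, there was 1 of 10, Itga1 (5.16% of all genes). Over all tested genes these medians were 0.01 and 0.18.

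**Figure D1:**
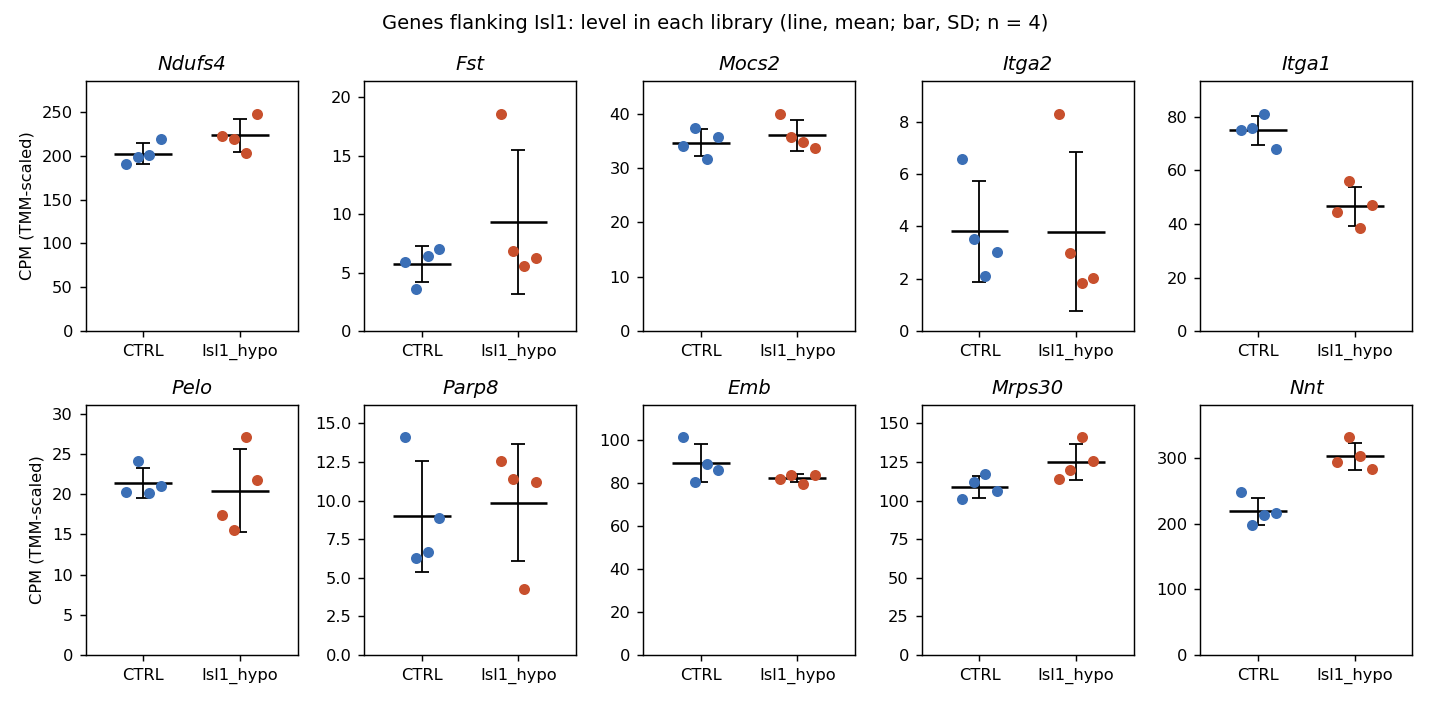
Level of each flanking gene in CPM (linear axis from 0) in the 4 CTRL (blue) and 4 Isl1_hypo (red) libraries, with the mean as a line and the SD as a bar, and replicates 1 to 4 from left to right. The groups are apart for Itga1 and Nnt and overlap for the other 8 genes, and the Isl1_hypo replicate 1 point stands high for Fst and Itga2.

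Itga1 had the smallest p of the flanking genes. Its level was 75, 75.8, 81.1 and 68.0 CPM in CTRL embryos 1 to 4 and 44.6, 55.9, 38.6 and 47.0 CPM in the Isl1_hypo replicates. All 4 Isl1_hypo embryos were lower than all 4 CTRL embryos, and the gap between the nearest libraries ran from 55.9 to 68.0 CPM. The means were 75 ± 5.39 and 46.5 ± 7.19 CPM (SD, n = 4), so that Isl1_hypo held 62.1% of the CTRL level.

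The log2 fold change of Itga1 was −0.69 (SE 0.13, 95% interval −0.97 to −0.40), with an unadjusted p of 0.000218 that ranked 52 of 13769 genes. Its adjusted p of 0.0577 did not pass at 0.05 (edgeR). DESeq2 gave a log2 fold change of −0.69 with an adjusted p of 0.000202 and limma-voom −0.62 with 0.0197, so the call depended on the test. By exact 2-sided permutation of the log2 CPM values p was 0.0286, which is as small as 4 against 4 libraries allow. When each library in turn was left out the log2 fold change stayed between −0.79 and −0.61, with adjusted p between 0.0504 and 0.197. In tissue RNA, fewer Itga1-expressing cells and less Itga1 RNA per cell cannot be told apart.

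Markers of cell types that could carry Itga1 were summed in each library. The 4 smooth muscle markers ranged from 5106 to 7613 CPM in CTRL and from 5178 to 7504 CPM in Isl1_hypo. The 7 endothelial markers ranged from 701 to 830 and from 563 to 749 CPM, and the 8 mesenchyme markers from 1795 to 2681 and from 1059 to 3105 CPM. These 3 sums overlapped between the groups, although 4 of 4, 5 of 7 and 7 of 8 of their genes had log2 fold changes below 0 (medians −0.32, −0.20 and −0.34). At an unadjusted p under 0.05, 1, 2 and 2 of them were lower (11.9% of all genes in either direction), and 0 passed by edgeR. Their part in the Itga1 difference was not tested.

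Pelo, inside the Itga1 gene body, stood at 20.3, 24.1, 20.2 and 21.1 CPM in CTRL and at 17.4, 15.6, 27.1 and 21.8 CPM in Isl1_hypo. The groups overlapped, and the Isl1_hypo libraries spread to both sides of the CTRL range. Its log2 fold change was −0.06 (SE 0.18, 95% interval −0.46 to 0.33, adjusted p = 0.917). Whether Itga1 differed from Pelo was asked with the log2 ratio of the pair in each library, a comparison chosen after the values were seen. The ratio was 1.65 to 2.0 in CTRL and 0.51 to 1.84 in Isl1_hypo, with means of 1.81 ± 0.16 and 1.20 ± 0.55 (SD, n = 4). The groups overlapped, and the difference of −0.60 did not pass (exact permutation p = 0.0857, 0.114 adjusted over 3 such ratios). An unequal change of the nested pair was thus not shown.

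Itga2, next to Itga1 and encoding the other collagen-binding alpha subunit of the segment, was the lowest member. Its level was 6.59, 3.52, 2.11 and 3.04 CPM in CTRL and 8.31, 3, 1.86 and 2.04 CPM in Isl1_hypo. Replicate 1 was the highest library of each group, and the ranges of the groups overlapped almost fully. The lowest value rests on 59 counts, with an exact Poisson 95% interval of 1.42 to 2.41 CPM, which covers counting error only. The log2 fold change was −0.01 with a wide 95% interval of −1.14 to 1.11 (SE 0.514, adjusted p = 0.993). Without Isl1_hypo replicate 1 it was −0.73 and without CTRL replicate 1 it was 0.38, and neither value passed.

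The telomeric end of the segment held Nnt, the member farthest from Isl1. Its level was 248, 199, 214 and 217 CPM in CTRL and 295, 332, 303 and 283 CPM in Isl1_hypo. Every Isl1_hypo embryo was above every CTRL embryo, with 283 CPM as the lowest Isl1_hypo and 248 CPM as the highest CTRL value. The means were 220 ± 20.8 and 303 ± 21.0 CPM (SD, n = 4), an Isl1_hypo level of 138% of CTRL.

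The log2 fold change of Nnt was 0.47 (SE 0.102, 95% interval 0.24 to 0.69), with an unadjusted p of 0.000711 (rank 98) and an adjusted p of 0.0997, which did not pass (edgeR). DESeq2 (0.47, adjusted p = 0.00228) and limma-voom (0.51, 0.0151) placed it under 0.05. Exact permutation of the CPM values on the log2 scale again reached its lower limit, p = 0.0286. Without any single library the log2 fold change lay between 0.41 and 0.53, with adjusted p between 0.0825 and 0.311.

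The table lists Nnt as 2 transcripts, NM_008710 of 4595 bases and NM_001308506 of 3626 bases. Their counts were close to equal in every library. For its 969 extra listed bases the longer transcript had 13, 28, 9 and −4 more counts than the shorter in CTRL and 20, 36, 27 and 32 more in Isl1_hypo, out of 5408 to 10149 counts. The transcripts gave the same log2 fold change of 0.47. Ratios of Nnt to a gene on each side were also compared, chosen after the values were seen. Against Mrps30, the nearest member, the log2 ratio was 1.0 ± 0.21 in CTRL and 1.28 ± 0.17 in Isl1_hypo (SD, n = 4, exact permutation p = 0.114, also 0.114 when adjusted). Against Paip1, the next gene towards the telomere, it was 1.41 ± 0.27 and 1.81 ± 0.29 (exact permutation p = 0.0857, adjusted 0.114). In both ratios the groups overlapped.

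Mrps30 stood at 101, 112, 117 and 106 CPM in CTRL and at 114, 120, 141 and 126 CPM in Isl1_hypo. The overlap came only from the lowest Isl1_hypo library, which lay within the CTRL range. Its log2 fold change was 0.20 (SE 0.1, 95% interval −0.02 to 0.42, adjusted p = 0.475). Ndufs4, the other member of the mitochondrial group, ranged from 191 to 219 CPM in CTRL and from 203 to 248 CPM in Isl1_hypo (log2 fold change 0.14, SE 0.0972, adjusted p = 0.587). All 3 mitochondrial members had log2 fold changes above 0, and none passed by edgeR. Of the functional partners listed for them, 11 of 15 complex I genes (median 0.09), 12 of 14 mitochondrial ribosome genes (median 0.06) and 10 of 11 genes of NADPH and peroxide handling (median 0.19) were above 0, and 0 of these 40 had an adjusted p under 0.05 by edgeR, DESeq2 or limma-voom (3 at an unadjusted p under 0.05 by edgeR, against 11.9% of all genes). Over all genes 7007 of 13769 were above 0.

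Parp8 and Emb are the members nearest to Isl1. Parp8 stood at 14.1, 6.30, 6.66 and 8.85 CPM in CTRL and at 12.6, 11.4, 4.30 and 11.2 CPM in Isl1_hypo. CTRL replicate 1 was high and Isl1_hypo replicate 3 low in its group, and the groups overlapped. The log2 fold change of 0.14 (SE 0.346, 95% interval −0.62 to 0.89, adjusted p = 0.908) moved to 0.43 without CTRL replicate 1 and to 0.39 without Isl1_hypo replicate 3, with adjusted p of at least 0.671. With limma-voom it was 0.52 (adjusted p = 0.39). Emb was far less variable, with 80.5 to 101 CPM in CTRL and 79.3 to 83.7 CPM in Isl1_hypo. Its log2 fold change was −0.12 (SE 0.0994, 95% interval −0.33 to 0.10, adjusted p = 0.671).

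Fst had the largest log2 fold change above 0 among the members, and it rested on a single embryo. Its level was 5.92, 3.59, 6.41 and 7.05 CPM in CTRL and 18.6, 6.90, 5.59 and 6.26 CPM in Isl1_hypo. Isl1_hypo replicate 1 stood above all others, while the other 3 Isl1_hypo libraries lay inside the CTRL range. The log2 fold change was 0.69 (SE 0.385, 95% interval −0.15 to 1.54, adjusted p = 0.506) with this library and 0.12 (adjusted p = 0.876) without it. The 6 epithelial markers summed to 302 CPM in Isl1_hypo replicate 1, to 124 to 192 CPM in the other Isl1_hypo libraries and to 67.9 to 115 CPM in CTRL. The 8 platelet and megakaryocyte markers summed to 224 CPM there and to 49.1 to 126 CPM elsewhere. Over all libraries 8 of 8 of these markers were above 0 in log2 fold change (median 0.72), 4 at an unadjusted p under 0.05 (11.9% of all genes in either direction) and 0 passing by edgeR. The mesenchyme markers summed to 3105 CPM there. Itga2 was highest in the same library. The part of these cell types in the Fst and Itga2 values was not tested.

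Mocs2, which shares the centromeric side with Fst, was steady at 31.6 to 37.3 CPM in CTRL and 33.6 to 40.0 CPM in Isl1_hypo. Its log2 fold change was 0.06 (SE 0.118, 95% interval −0.20 to 0.32, adjusted p = 0.883). The 3 listed transcripts of Mocs2 gave log2 fold changes of 0.05 to 0.07, and the 3 of Fst gave 0.70 or 0.71, when every transcript was fitted.

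**Figure D2:**
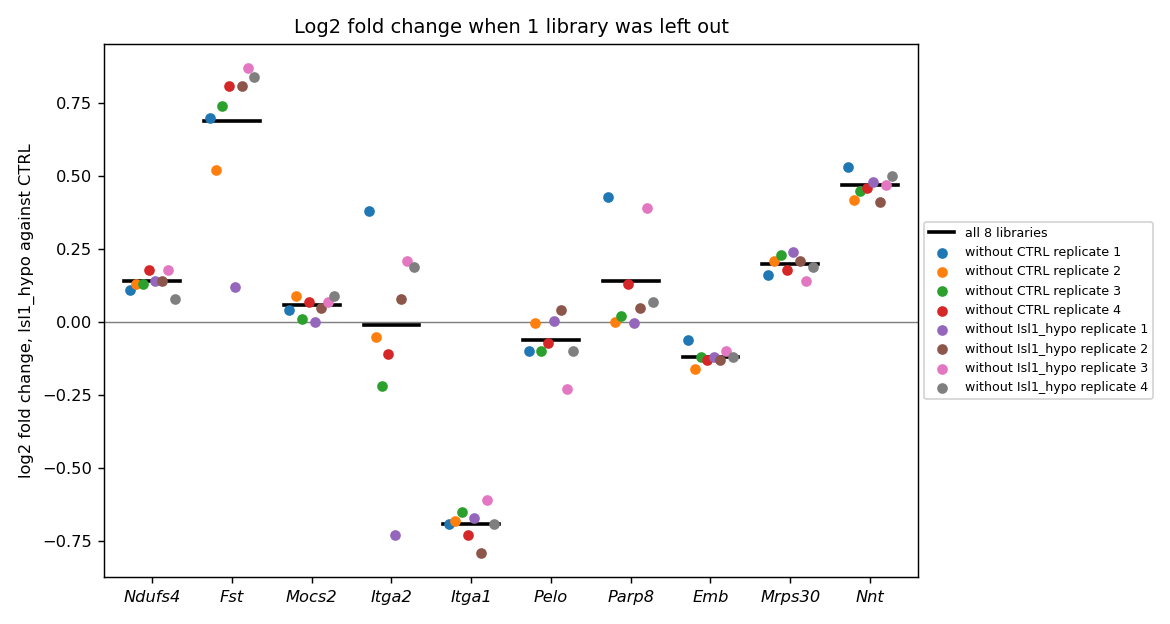
Log2 fold change of each flanking gene, Isl1_hypo against CTRL, with all 8 libraries (black line) and with each library left out in turn (coloured points). Itga1 stays between −0.79 and −0.61 and Nnt between 0.41 and 0.53, while Fst drops to 0.12 and Itga2 to −0.73 without Isl1_hypo replicate 1.

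Levels were compared between genes per transcript length, as the RPKM values made by the authors. In CTRL the order was Ndufs4 (81.3 ± 4.38), Mrps30 (42.3 ± 2.1), Nnt (29.3 ± 3.13), Emb (20.9 ± 2.24), Mocs2 (11.3 ± 0.844), Pelo (8.38 ± 0.711), Itga1 (7.72 ± 0.528), Parp8 (1.8 ± 0.749), Fst (1.23 ± 0.322) and Itga2 (0.561 ± 0.295 RPKM, SD, n = 4). The mitochondrial genes held the 3 highest places. Neighbours in this order had separate ranges over the 4 libraries, except Pelo and Itga1, Parp8 and Fst, and Fst and Itga2. In Isl1_hypo the first 7 places were the same. There the range of Itga1 (4.71 ± 0.773 RPKM) was separate from that of Pelo (7.83 ± 1.83), and it overlapped that of Fst (1.98 ± 1.34), whose highest library reached 3.98 RPKM. Nnt, at 39.8 ± 2.8 RPKM in Isl1_hypo, was separate from Mrps30 at 47.6 ± 3.55. The Nnt values divide by the 4595 bases of NM_008710. NM_001308506, with 3626 bases, had nearly the same counts and so a higher level per length. The order and separation of Nnt and Mrps30 in both groups therefore depend on the transcript chosen.

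**Figure D3:**
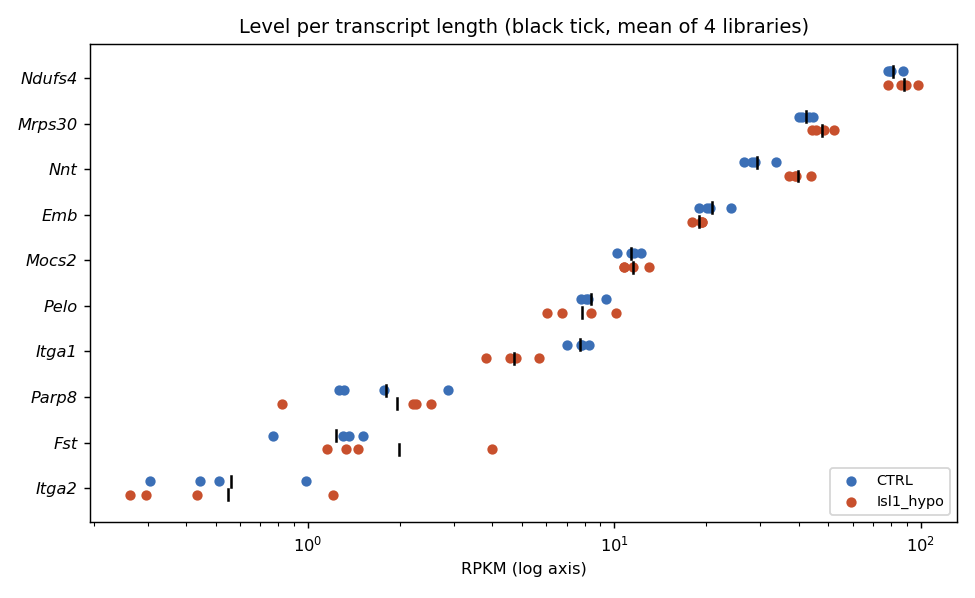
Level per transcript length (RPKM, log axis) of the flanking genes in each CTRL (blue) and Isl1_hypo (red) library, with the mean of 4 libraries as a black tick and genes ordered by the CTRL mean. The levels run from 0.561 RPKM for Itga2 to 81.3 RPKM for Ndufs4 in CTRL, and the groups are apart for Itga1 and Nnt.

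The full neighbourhood was then taken by position alone. Within 5 Mb of Isl1 lie 36 other gene symbols of the table, of which 30 were tested and 6 had been removed by the filter, with at most 23 counts in any library (Ccno). Of the 30, 6 (20%) had an unadjusted p under 0.05, against 52 of 485 (10.7%) on the rest of chromosome 13 and 11.9% of all genes. Of these 6, 5 were lower and 1, Nnt, higher in Isl1_hypo. The groups did not overlap for 5 of the 30, against 8.5% of all genes. The median log2 fold change was −0.01 within 5 Mb and 0.03 on the rest of the chromosome. From 5 to 10 Mb, 2 of 11 tested genes (18.2%) were higher at an unadjusted p under 0.05 and 0 were lower. These counts were not tested against each other.

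Of the 30 genes 1 passed by edgeR (0.269% of all genes did), Fgf10, which encodes a fibroblast growth factor made in the second heart field. It lies between Mrps30 and Nnt, 2.36 Mb from Isl1. Its level was 25.1, 25, 25.8 and 26 CPM in CTRL and 12.9, 12.4, 16.2 and 11.9 CPM in Isl1_hypo. Fgf10 fell by 0.93 ± 0.143 (SE) on the log2 scale (edgeR, adjusted p = 0.031). The study lists Fgf10 among the primary downstream targets of Isl1. Whether its fall goes with that or with its position was not tested. The members on either side, Mrps30 and Nnt, had log2 fold changes of 0.20 and 0.47. In 6 of the 8 fits that left out a library, no gene within 5 Mb passed.

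Other neighbours with an unadjusted p under 0.05 did not pass by edgeR after adjustment. The uncharacterised gene 4833420G17Rik, 3.15 Mb from Isl1 and beyond Nnt, stood at 27.8 to 34.5 CPM in CTRL and at 6.54 to 24.1 CPM in Isl1_hypo (log2 fold change −1.37, SE 0.343, adjusted p = 0.161 by edgeR, 0.00358 by DESeq2 and 0.0536 by limma-voom). Arl15, a gene for a small GTPase-like protein 2.14 Mb to the centromeric side, stood at 36.3 to 41.9 CPM in CTRL and at 20.4 to 32.1 CPM in Isl1_hypo (−0.51, SE 0.156, adjusted p = 0.244 by edgeR, 0.0793 by DESeq2 and 0.171 by limma-voom). For both genes every Isl1_hypo library lay under every CTRL library.

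**Figure D4:**
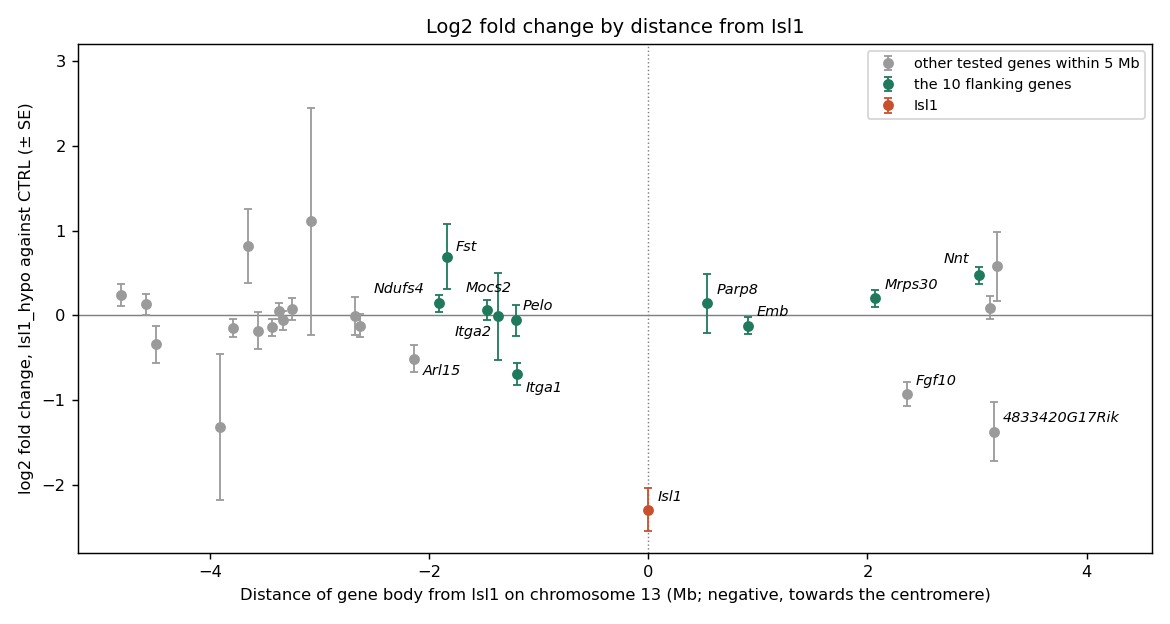
Log2 fold change of Isl1_hypo against CTRL (± SE) for Isl1 (red), the 10 flanking genes (green) and 19 other tested genes within 5 Mb (grey), by distance of the gene body from Isl1 in Mb. Itga1 at −0.69 and Nnt at 0.47 lie on opposite sides of 0 and of Isl1, and members nearer to Isl1 such as Parp8 and Emb lie at 0.14 and −0.12.

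The directions of the members were counted on each side of Isl1, without a test. The signs of Itga2, Pelo and Parp8 depended on the libraries kept. Of the 6 centromeric members 3 were higher and 3 lower in Isl1_hypo, and of the 4 telomeric members 3 were higher and 1 lower. The median log2 fold change was 0.02 on the centromeric and 0.17 on the telomeric side. Itga1 and Nnt, the members with an unadjusted p under 0.05, lay 1.20 and 3.02 Mb from Isl1, while Parp8 and Emb, within 1 Mb, did not reach it.

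Functional partners of the other members were listed as well. Of the 10 genes of collagen receptors and their ligands listed with Itga1 and Itga2, 8 were lower and 2 higher (median −0.18). Of these 10, 0 passed by edgeR and limma-voom and 1 by DESeq2 (2.32% of all genes), and 2 were lower at an unadjusted p under 0.05 by edgeR (11.9% of all genes in either direction). Of the 11 activin and follistatin pathway genes listed with Fst, 8 were lower (median −0.14), and 1, the ligand gene Bmp4, fell, with 209 to 248 CPM in CTRL and 94.4 to 130 CPM in Isl1_hypo (log2 fold change −0.94, SE 0.12, adjusted p = 0.0172). Of these 11 genes edgeR thus called 1 (0.269% of all genes), DESeq2 2 (2.32%) and limma-voom 2 (0.973%), and 3 were lower at an unadjusted p under 0.05 (11.9% of all genes in either direction). Among 8 ribosome rescue genes, 5 molybdenum cofactor genes, 12 ADP-ribosyl transferase genes and 5 genes of the basigin family and its transporters, 0 passed by edgeR, DESeq2 or limma-voom, with medians of 0.04, −0.05, 0.05 and 0.11. At an unadjusted p under 0.05 by edgeR there were 2, 0, 1 and 1 of them (11.9% of all genes).

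The genes whose pattern over the 8 libraries was closest to that of Itga1, by the root mean square difference of centred log2 CPM, were Pbxip1 (0.0836), Krt90 (0.085) and Hip1 (0.104). The median over all tested genes was 0.465. In CTRL and Isl1_hypo, Pbxip1 stood at 136 ± 7.46 and 88.2 ± 11.6 CPM, Krt90 at 2.61 ± 0.229 and 1.48 ± 0.221 CPM, and Hip1 at 147 ± 14.4 and 94.6 ± 15.5 CPM (SD, n = 4). None of the 3 passed by edgeR at an adjusted p under 0.05. Pbxip1 (0.000108 by DESeq2 and 0.0111 by limma-voom) and Hip1 (0.00162 and 0.0227) had adjusted p under 0.05 by the other tests, and Krt90 (0.226 and 0.351) did not. These 3 genes were chosen for their likeness to Itga1 in the same 8 libraries, so a group difference was largely fixed by the choice. Their values describe the pattern and are no separate result.

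Other marker lists were summed to describe the tissue around these values. The 9 outflow tract and second heart field markers, among them Isl1 and Fgf10, summed to 606 to 701 CPM in CTRL and 379 to 444 CPM in Isl1_hypo without overlap, with 8 of 9 lower. Of these 9, 3 passed by edgeR (0.269% of all genes), namely Isl1, Fgf10 and Bmp4, whose values are given above. At an unadjusted p under 0.05, 5 of the 9 were lower (11.9% of all genes in either direction). The 6 epithelial markers were also apart, at 67.9 to 115 and 124 to 302 CPM, with 3 of the 3 tested genes higher at an unadjusted p under 0.05 (11.9%) and 0 passing by edgeR. Erythroid markers ranged from 2041 to 11975 CPM in CTRL and from 11966 to 25727 CPM in Isl1_hypo, with 11 of 11 genes above 0 and a median log2 fold change of 1.72. Of these 11, 1 passed by edgeR (0.269% of all genes) and 10 were higher at an unadjusted p under 0.05 (11.9%). The part of these shifts in the Itga1 and Nnt values was not tested. The lists of macrophage (9.73 to 23 and 2.43 to 17.7 CPM), neural crest (2.14 to 3.57 and 1.07 to 5.96 CPM), neuron (53.5 to 78.5 and 33.1 to 55.6 CPM) and liver and yolk sac genes (13.6 to 30 and 21.3 to 45.5 CPM) overlapped. Among the neural crest markers Sox10, Foxd3, Tfap2a and Tfap2b, and among the liver and yolk sac markers Afp, Alb, Apoa1 and Ttr, were under 1 CPM in every library. When globin was added as a covariate, Itga1 had a log2 fold change of −0.51 and Nnt of 0.49, and 0 genes passed in that fit (499 at an unadjusted p under 0.05). Mean globin log2 CPM was 5.24 to 7.86 in CTRL and 7.81 to 8.74 in Isl1_hypo. The fit can therefore hardly separate globin from group. Isl1 itself kept −2.30 there, with an adjusted p of 0.519 (edgeR).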

How the data were processed

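Per the labels and methods, polyadenylated RNA of single embryos was sequenced on the BGISEQ-500. The authors mapped reads with STAR to mm9, counted exon reads per RefSeq transcript with HOMER without strand, and deposited raw counts. The deposited RPKM values equal, within 1e-06 RPKM in all 8 libraries, the counts divided by transcript length and by the library total over all 31507 transcripts of the table. That total counts reads shared by transcripts of a gene repeatedly and exceeds the depth given above, which is over 1 transcript per symbol. Columns of the authors' own comparison (DESeq2 fold changes and p-values) were not used.

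The transcript with the highest mean count was kept for each of 20701 symbols, filterByExpr left 13769 genes, and Isl1_hypo was compared with CTRL by the edgeR (4.0.16) quasi-likelihood test after TMM scaling, without covariates and with Benjamini-Hochberg adjustment over all tested genes. The SE is the log2 fold change divided by the square root of F. The biological coefficient of variation was 26.4%. Log2 CPM had a prior count of 2. Single values were compared by exact 2-sided permutation tests over 70 assignments (smallest p 0.0286). Alternatives were DESeq2 (1.42.0), limma-voom (3.58.1), RLE scaling, other filters and transcripts, the replicate number as a block, a globin covariate and leaving out each library. The edgeR, DESeq2 and limma-voom fits were tested on simulated data.

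Positions are from the GENCODE annotation of mm9. The neighbourhood is every tested gene wholly within 5 Mb of Isl1. Named were the 10 members, Isl1, neighbours with an unadjusted p under 0.05 except 1 that enters the counts and is not reported here, partner genes that passed, and the 3 genes most like the member with the smallest p. Ccno and the marker genes at low level were named after their values were seen. The members and lists were chosen with earlier results of these data known. P-values measure the spread between embryos.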

Additional observations from a re-analysis of the deposited data

Results flagged for a closer look

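Isl1, the 10 flanking genes and the 3 named neighbours were searched within CTRL and within Isl1_hypo for a library distant from its own group. This was found in 1 of 28 sets of 4 values, where chance gives about 1 in 20, or 1.4. Isl1_hypo replicate 3 had 2.12 log2 CPM of Parp8, while its 3 companions had 3.49 to 3.66.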

How the results depend on the processing

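Over the 17 alternatives the log2 fold change of Itga1 stayed between −0.79 and −0.51, that of Nnt between 0.41 and 0.53 and that of Isl1 between −2.46 and −2.14. The call of Itga1 at an adjusted p under 0.05 was gained with DESeq2 (−0.69), limma-voom (−0.62) and a minimum of 10 counts in every library (−0.69, adjusted p 0.0426), and that of Nnt with DESeq2 (0.47) and limma-voom (0.51). Isl1 lost its call with the replicate block (−2.29, adjusted p 0.0722) and the globin covariate (−2.30, 0.519). The number of flanking genes called, 0 by edgeR, was 2 with DESeq2, 2 with limma-voom, 1 with the minimum of 10 counts, 2 at an adjusted p under 0.10 and 1 by the criterion of the study. Within 5 Mb, 1 gene was called by edgeR, 4 with DESeq2, 3 with limma-voom, 2 with the minimum of 10 counts, and 0 with the block, the globin covariate and a window of 2 Mb. The cause was not tested. Over all genes, 37 were called by edgeR, 319 with DESeq2, 134 with limma-voom, 49 with the minimum of 10 counts, and 0 with the block (1582 at an unadjusted p under 0.05) or the globin covariate (499).

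Deviations of same-numbered libraries correlated at 0.019, −0.021, 0.013 and 0.022, so no shared signal by replicate number was seen. Such values cannot show whether same-numbered embryos were paired when they were collected or handled. With the replicate number as a block the log2 fold changes were −0.70 for Itga1 and 0.47 for Nnt. Itga2 changed direction with limma-voom (0.15) and the globin covariate (0.72). With the same 2 alternatives Parp8 moved from 0.14 to 0.52 and 0.48, Pelo from −0.06 to −0.24 and −0.17, and Emb from −0.12 to −0.07 and −0.06. Mrps30 moved from 0.20 to 0.12 with limma-voom and Ndufs4 from 0.14 to 0.07 with the globin covariate.

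Leaving out 1 library gave −2.46 to −2.14 for Isl1, 0.08 to 0.18 for Ndufs4, 0.12 to 0.87 for Fst, −0.73 to 0.38 for Itga2, −0.23 to 0.04 for Pelo and −0.0024 to 0.43 for Parp8, so the sign of Itga2, Pelo and Parp8 depended on the libraries kept. The median of the members ranged from 0.0026 to 0.16 (lowest without Isl1_hypo replicate 1), the number of members called was 0 each time, and the number of genes called within 5 Mb was 0 or 1. Over all genes, the calls ranged from 4 without CTRL replicate 3 to 48 without Isl1_hypo replicate 3. Itga2, at 59 to 206 counts per library, has the least counting precision.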
